A study of Bos taurus with 4 samples.

Results

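The genes described here are those that cells switch on when oxygen is short, together with the factors that switch them on. They are ADM, NDRG1, ANKRD37, SLC2A1 and VEGFA as induced targets, HIF1A and EPAS1 as the oxygen-regulated transcription factors, and EGLN1 and EGLN3 as oxygen sensors. Their transcripts are written in lower case (*adm*, *ndrg1* and so on). Probes were taken by the accession printed on the array design, which had to belong to the bovine gene. Of the 9 genes, 8 were found, with 17 of the 43653 non-control probes, among 11054 genes that had a symbol. No probe carried an accession of *egln1*, so *egln1* was not measured. All 17 probes passed the filter on dim signals, which asked for spots well above background on all 4 arrays in the same channel, Cy5 or Cy3. Dim probes of *slc2a1*, *hif1a* and *epas1* passed through Cy5 alone.

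In cells with enough oxygen, prolyl hydroxylases encoded by the *egln* genes mark the HIF alpha subunits, the von Hippel-Lindau protein binds the mark, and the subunits are destroyed. When oxygen falls, the alpha subunits persist, pair with the protein of *arnt* and activate genes for glucose uptake, glycolysis, vessel growth and adaptation to stress. The control acts mainly on the protein, so the mRNA of *hif1a* or *epas1* does not measure the activity of the factor. In skeletal muscle the pathway is best known for exercise and for the supply of capillaries.

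The RNA came from the *m. semitendinosus*, a hindlimb muscle, of 15-month-old bulls of 2 breeds, Hereford (HER, beef) and Holstein-Friesian (HF, dairy). There were 4 bulls per breed. The tissue was collected post mortem and trimmed of fat and connective tissue before freezing, and the labels name no treatment. Each of the 4 dual-colour Agilent arrays held 1 bull of each breed, and the arrays are numbered 1 to 4 as in the labels. The comparison asks how a beef and a dairy breed differ in mature muscle, at 1 age and in 1 muscle.

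Every signed value is log2(Cy5/Cy3), the log2 ratio of the 2 dye channels of an array. By the dye labels Cy5 was HF and Cy3 was HER. The same labels also speak of a dye swap, and the study's tables run with Cy5 over Cy3 as HER over HF. The paper also reports qPCR of selected genes, and a Western blot of myostatin, that ran in the direction of its tables. None of the hypoxia genes was among them. By the dye labels, a gene given here as higher in Cy5 was higher in HF, in opposition to the study's tables. For this reason no breed is given as the higher one. All 4 arrays had the same dye orientation, so that a dye effect and a breed effect cannot be told apart. In bulk muscle, fewer cells of a type and less RNA per cell cannot be told apart either.

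The median spot signal was 129 to 160.5 in Cy5 and 77 to 138 in Cy3, over a background of 37 to 41. No spot was saturated. The arrays differed in pattern, with log ratios of array pairs correlating at r = 0.332 to 0.618 across probes. Calls were made at an adjusted p under 0.05 (Benjamini-Hochberg) from limma, a linear model fitted over all 32606 tested probes. A gene was represented by its brightest probe. The skeletal muscle markers measured, 9 of 9, were well above background in both channels of all arrays.

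Among the hypoxia genes, *adm*, *ndrg1*, *slc2a1* and *ankrd37* were higher in the Cy5 sample, by 2.84-fold, 2.57-fold, 2.17-fold and 1.51-fold. None was lower. *Vegfa*, *egln3*, *epas1* and *hif1a* were not called. The 4 called of 8 genes stand beside 2.92% of the 9425 tested genes that were called higher and 1.54% that were called lower. The 8 genes were chosen with earlier results of these data known. Their shares beside those of all genes or probes are therefore description and not a test. Of the 17 probes 5 were called, all of them higher, against 3.32% of all probes in either direction and 1.97% in this one. The median log2 ratio of the 8 genes was 0.53, and that of all tested genes was 0.02. With median centring in place of loess the median of the 8 genes was 0.96. That of all probes, which are not reduced to the brightest of each gene, moved from 0.01 to 0.24. Among 76 other pathway genes, taken by brightest probe, the median in that setting was 0.58, and 69 were above 0. The gap between 0.96 and 0.24 is therefore not one between like measures. The study itself asked for a p of at most 0.05 without adjustment and at least a 1.3-fold change. Higher by that rule were 5 of the 8 genes, the fifth being *hif1a*, and 10.6% of all genes.

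**Figure D1:**
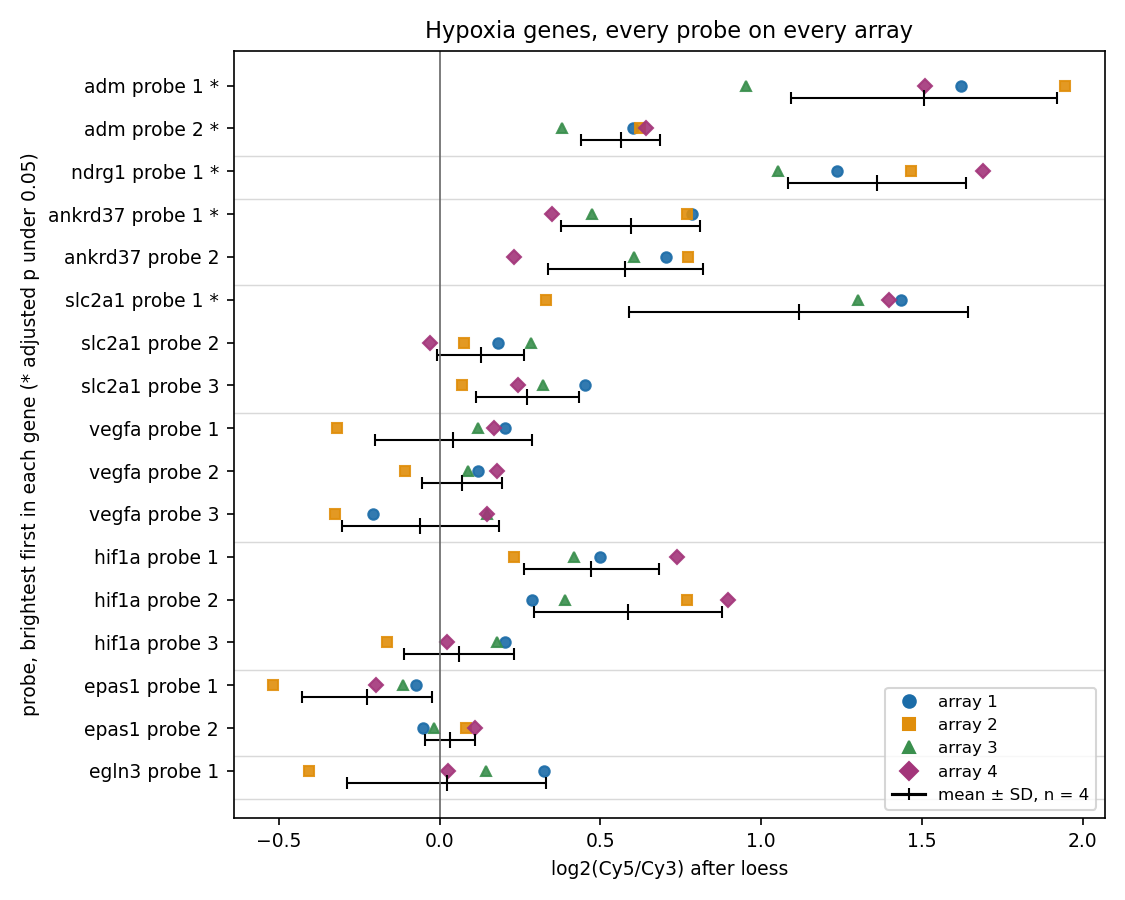
Log2(Cy5/Cy3) of each of the 17 probes on each of the 4 arrays (x axis), with probes of a gene listed from bright to dim (y axis); bars are the mean ± SD of the 4 arrays and an asterisk marks an adjusted p under 0.05. All points of *adm*, *ndrg1* and *ankrd37* lie above 0, while those of *vegfa* and *egln3* lie on both sides of it.

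Adrenomedullin, encoded by *adm*, is a secreted peptide that widens vessels and is a widely used marker of the hypoxic response. Its brighter probe, A_73_P032436, had normalized log2 intensities of 11.75, 11.89, 11.56 and 11.32 in Cy5 on arrays 1 to 4. In Cy3 the levels were 10.13, 9.95, 10.60 and 9.81. Every Cy5 level lay above every Cy3 level. The unprocessed median signals were 3901 to 6597 in Cy5 and 456.5 to 1181 in Cy3. On arrays 1 to 4 the log2 ratio was 1.62, 1.94, 0.95 and 1.51, with a mean of 1.51 ± 0.41 (SD, n = 4; 95% confidence interval 1.11 to 1.91; adjusted p = 0.0257, limma). Array 3, where the Cy3 bull had the highest level of the 4, gave the smallest ratio. The dimmer probe, A_73_P101696, was called as well, at 0.56 ± 0.12 (SD, n = 4; adjusted p = 0.0371, limma). Its ratio was 0.60, 0.62, 0.38 and 0.64, again smallest on array 3, and its levels did not overlap between channels. The 2 probes thus ran in the same direction but differed in size, and the dimmer one moved to 1.18 with plain background subtraction and to 1.41 with the scanner-processed signals.

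*Ndrg1* encodes a cytoplasmic stress-responsive protein that rises in many cell types when oxygen is low. Its only probe, A_73_P044251, read 11.15, 11.06, 10.73 and 10.94 in Cy5 and 9.92, 9.59, 9.68 and 9.25 in Cy3. The channels did not overlap, and the spread among the Cy5 samples was small (SD 0.18) next to the distance between the channels. The log2 ratio was 1.24, 1.47, 1.05 and 1.69 on arrays 1 to 4. The mean of 1.36 ± 0.28 (SD, n = 4; 95% confidence interval 1.06 to 1.66) had an adjusted p of 0.0182 in limma, the smallest among the 17 probes. Of its relatives, named after their values were seen, *ndrg2* was at -0.74 ± 1.00, *ndrg3* at -0.06 ± 0.22 and *ndrg4* at 0.00 ± 0.43 (SD, n = 4), and none of them was called.

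*Slc2a1* encodes GLUT1, the glucose transporter of basal uptake. Its brightest probe, A_73_104917, read 8.32, 7.23, 8.02 and 7.94 in Cy5 against 6.88, 6.90, 6.72 and 6.55 in Cy3. All Cy5 levels were above all Cy3 levels, although the Cy5 sample of array 2 stood well below the other 3. The Cy3 signal of this probe was low, with unprocessed medians of 55 to 93.5 over a background of 33.5 to 38. It was still well above background on all 4 arrays. Ratios of 1.435, 0.330, 1.302 and 1.397 on the log2 scale gave a mean of 1.12 ± 0.53 (SD, n = 4; 95% confidence interval 0.62 to 1.61; adjusted p = 0.0483, limma). With plain background subtraction it moved to 1.92 and with the scanner-processed signals to 2.08, and the call held in each. It was lost when no filter on dim probes was used (adjusted p = 0.0609). The 2 other probes of *slc2a1* were dim and were not called in the main fit. A_73_P033201 was at 0.27 ± 0.16 (SD, n = 4; 95% confidence interval 0.05 to 0.50) and was not well above background in Cy3 on any array. With Cy3 held at or above the background floor, the means of normalized log2 values were 1.2-fold apart. That value counts no sampling error and is not a lower limit of the change. A_73_P346251 was at 0.13 ± 0.14 (SD, n = 4) and was well above background in Cy3 on 1 of 4 arrays. The direction of these 2 probes turned with the scaling, to -0.06 and -0.13 with median centring of the arrays in place of loess. With the scanner-processed signals they moved to 2.02 and 1.09. There A_73_P033201 was called (adjusted p = 0.0328, limma) and A_73_P346251 was not (0.0779). The mean over all 3 probes was 0.51 (adjusted p = 0.0659, limma), which was not called.

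*Ankrd37* encodes an ankyrin repeat protein and is a direct target of HIF-1. Probe A_73_121017 read 8.18, 9.35, 9.09 and 8.89 in Cy5 and 7.40, 8.58, 8.62 and 8.54 in Cy3. The channels overlapped, because both bulls of array 1 had low levels, and within each array the Cy5 sample was the higher one. Ratios of 0.78, 0.77, 0.47 and 0.35 on the log2 scale gave a mean of 0.59 ± 0.22 (SD, n = 4; adjusted p = 0.0471, limma). The second probe, A_73_P327626, gave nearly the same values of 0.71, 0.77, 0.60 and 0.23 and a mean of 0.58 ± 0.24 (SD, n = 4), but with an adjusted p of 0.0535 in limma it was not called. The call of *ankrd37* was the least firm of the 4. It was lost with plain subtraction and with the scanner-processed signals, although the log2 ratio was larger there, at 0.76 (adjusted p = 0.0599) and 0.91 (0.0712). It was also lost without the filter on dim probes (adjusted p = 0.0519) and in the separate-channel fit (0.197), in which limma compares the levels of the channels. With median centring the log2 ratio was 1.02 and the call held (adjusted p = 0.00621). In that setting 10725 probes were called, 93.4% of them higher in Cy5.

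*Vegfa* encodes the main growth factor of capillaries. Its brightest probe, A_73_115644, read 8.15, 7.30, 7.68 and 7.74 in Cy5 and 7.95, 7.62, 7.56 and 7.57 in Cy3, with overlapping channels. Its ratios of 0.21, -0.32, 0.12 and 0.17 had a mean of 0.04 ± 0.25 (SD, n = 4; 95% confidence interval -0.23 to 0.32; adjusted p = 0.855, limma). The other probes were at 0.07 ± 0.12 and -0.06 ± 0.24 (SD, n = 4). All 3 probes had their lowest ratio on array 2. The sign of *vegfa* was not settled, since the mean was -0.04 with the scanner-processed signals. The confidence interval excludes a change of the size seen for *adm* or *ndrg1* in either direction at this probe.

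**Figure D2:**
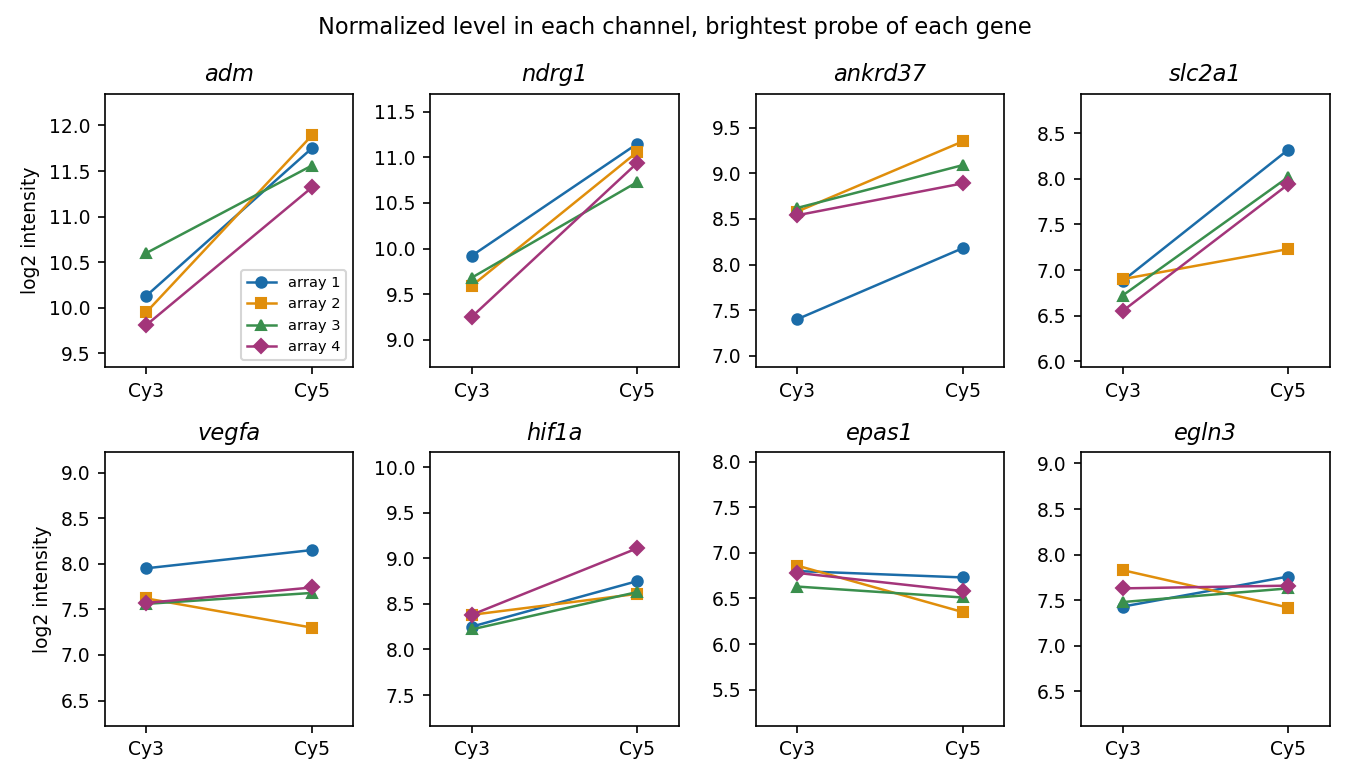
Normalized log2 intensity (y axis) of the brightest probe of the 8 genes in the Cy3 and Cy5 channel (x axis), with a line for each of the 4 arrays, and vertical scales of equal span. For *adm*, *ndrg1*, *slc2a1* and *hif1a* the lowest Cy5 level lies above the highest Cy3 level.

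*Hif1a* encodes the alpha subunit of HIF-1, found in most cells, and the brightest of its 3 probes leaned the same way as the called genes without being called. Probe A_73_P253966 read 8.75, 8.61, 8.63 and 9.11 in Cy5 and 8.25, 8.38, 8.22 and 8.38 in Cy3, so that the channels did not overlap. The log2 ratio was 0.50, 0.23, 0.42 and 0.74, with a mean of 0.47 ± 0.21 (SD, n = 4; 1.39-fold; 95% confidence interval 0.22 to 0.73; adjusted p = 0.0636, limma). The second probe, A_73_103797, was at 0.29, 0.77, 0.39 and 0.90, with a mean of 0.59 ± 0.29 (SD, n = 4; adjusted p = 0.0614, limma). The third, A_73_P098736, was dimmer, at 0.06 ± 0.17 (SD, n = 4), with 1 array below 0. The bright probe passed the threshold with median centring (0.90, adjusted p = 0.0034) and in the separate-channel fit (adjusted p = 0.0297). Both settings called more probes than the 1083 of the main fit. Median centring called 10725 probes, 93.4% of them higher in Cy5, and the separate-channel fit called 3210. *Hif1a* and *ddit4* are among the genes the study selected on these bulls, so that their direction here is not independent evidence.

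*Epas1* encodes the alpha subunit of HIF-2, which is abundant in endothelium. Its brighter probe, A_73_P033606, read 6.73, 6.35, 6.51 and 6.58 in Cy5 and 6.80, 6.86, 6.63 and 6.78 in Cy3. The log2 ratio was -0.07, -0.52, -0.11 and -0.20, below 0 on all 4 arrays, with a mean of -0.22 ± 0.20 (SD, n = 4; 95% confidence interval -0.47 to 0.02). It was not called (adjusted p = 0.241, limma). The mean stayed below 0 in the other settings, between -0.69 with the scanner-processed signals and -0.10. The second probe, A_73_P106381, was at 0.03 ± 0.08 (SD, n = 4) and was well above background in Cy3 on 1 of 4 arrays. Whether *hif1a* and *epas1* differed from each other in their ratio was not tested.

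*Egln3* encodes the prolyl hydroxylase PHD3, an oxygen sensor and itself a HIF target. Its probe, A_73_111753, read 7.76, 7.42, 7.63 and 7.66 in Cy5 and 7.43, 7.83, 7.48 and 7.63 in Cy3, with full overlap. Its ratios of 0.32, -0.41, 0.14 and 0.03 had a mean of 0.02 ± 0.31 (SD, n = 4; 95% confidence interval -0.30 to 0.34; adjusted p = 0.941, limma). The sensor was thus not detectably different between the channels.

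The 8 genes did not take 1 common course over the arrays. *Adm*, *ndrg1*, *ankrd37*, *slc2a1* and *hif1a* were higher in Cy5 on all 4 arrays, 5 of 8 genes, where 20.4% of all tested genes were. This held for 9 of the 17 probes and for 18.3% of all probes. In 4 genes the Cy5 levels all lay above the Cy3 levels, against 9.42% of genes. Since the genes were chosen with earlier results known, these shares too are description only. By brightest probe, array 2 gave the lowest ratio for 5 of the 8 genes, namely *slc2a1*, *vegfa*, *hif1a*, *epas1* and *egln3*. It was lowest for 19.7% of all genes. Of the remaining genes *adm* was highest on array 2. The second probes of *hif1a* and *epas1* were lowest on array 1. The median ratio of the 8 genes was 0.64, 0.28, 0.45 and 0.54 on arrays 1 to 4. Array 1 gave the highest ratio for 5 of the 8 genes, against 23.7% of all genes.

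The level of the endothelial markers also differed by array. The summed level of 9 measured endothelial markers of 10 listed differed between Cy5 and Cy3 by 0.46, -0.25, 0.50 and 0.55 on arrays 1 to 4, and was thus lowest on array 2. No endothelial marker was called. An unadjusted p under 0.05 was reached by 2 of 9 in the higher and 1 in the lower direction, and by 28.3% of all tested genes in either direction. Their summed log2 level was 12.58 to 13.12 in Cy5 and 12.29 to 12.83 in Cy3. Of 6 fibroblast markers 2 were called lower in Cy5, *col1a1* at -2.05 and *col3a1* at -1.68, beside 1.54% of all genes. *Col1a2* at -1.34 ± 0.73 and *lum* at -0.77 ± 0.49 (SD, n = 4) were below 0 on all 4 arrays without a call. *Pdgfra* was at 0.49 ± 0.56 and *dcn* at 0.42 ± 0.50 (SD, n = 4). An unadjusted p under 0.05 in limma was reached by 4 of the 6, all lower in Cy5. The fibroblast list had a summed log2 level of 15.00 to 15.89 in Cy5 against 15.81 to 16.68 in Cy3, and the difference was -1.33, 0.08, -0.95 and -0.83 on arrays 1 to 4. Of 6 markers of smooth muscle and pericytes *cnn1* was called, at -0.79. No marker of blood (4 measured), of macrophages and lymphocytes (7) or of adipocytes (5) was called. The markers of macrophages and lymphocytes had a median log2 ratio of 0.50, and 4 of the 7 had an unadjusted p under 0.05, all higher in Cy5. Their summed level, 11.30 to 11.83 in Cy5 and 10.88 to 11.16 in Cy3, was higher in Cy5 by 0.15, 0.57, 0.18 and 0.75 on arrays 1 to 4. The part of these cells in the ratios of the hypoxia genes was not tested.

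Other genes of the pathway were read from 5 lists of 96 further genes, of which 79 were on the array and 76 were measured. Of these 4 were called higher and 1 lower, together 6.58%, where 4.46% of all genes were called in either direction. Their median log2 ratio was 0.16 against 0.02 for all genes, and 28 of the 76, 20 higher and 8 lower, had an unadjusted p under 0.05, beside the 28.3% of all genes. The called share is near that of all genes and is not a result about these lists. With median centring the median of the listed genes was 0.58.

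Around the sensors and the HIF subunits, 1 of 15 measured genes was called, with *hif1a*, *epas1* and *egln3* counted in. This was *crebbp*, the coactivator CBP that HIF recruits, at 0.63 ± 0.22 (SD, n = 4; adjusted p = 0.0432, limma), with 0.35, 0.63, 0.88 and 0.67 on arrays 1 to 4. It had 4 probes, of which only the brightest was called, and the lowest was at 0.05. The call was lost with the scanner-processed signals (adjusted p = 0.0693) and with plain subtraction (0.052). Genes that did not pass included *cited2*, a HIF-induced protein that competes for CBP, at 0.98 ± 0.65, and *siah1*, a ubiquitin ligase of the hydroxylases, at 0.68 ± 0.42 (SD, n = 4). The inhibitor gene *hif1an* was at -0.43 ± 0.28, *hif3a* at 0.15 ± 0.19, *egln2* at 0.07 ± 0.23 and the partner gene *arnt* at 0.05 ± 0.13 (SD, n = 4). *Vhl* was on the array but did not pass the filter on dim signals.

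Of 25 measured further hypoxia-induced genes, 2 were called higher and none was called lower, beside 2.92% and 1.54% of all tested genes. An unadjusted p under 0.05 in limma was reached by 8 in the higher and 3 in the lower direction, and by 28.3% of all tested genes in either direction. *Bnip3*, a mitophagy receptor, was at 0.65, 1.53, 1.05 and 1.42, with a mean of 1.16 ± 0.40 (SD, n = 4; 2.23-fold; adjusted p = 0.0331, limma), and its second probe, at 0.55, was not called. *Plin2*, which coats lipid droplets, was at 1.17, 0.95, 0.37 and 0.79, with a mean of 0.82 ± 0.34 (SD, n = 4; adjusted p = 0.0441, limma). *Plin2* lost its call when no filter on dim probes was used (adjusted p = 0.053).

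*Ddit4*, an inhibitor of mTORC1, had a mean of 1.295 ± 0.76 (SD, n = 4; adjusted p = 0.0619, limma) and was not called. Its ratios were 1.95, 0.23, 1.29 and 1.70, which like those of *slc2a1* were low on array 2 alone. It passed in 4 other settings, among them plain subtraction (adjusted p = 0.0492) and the separate-channel fit (0.027). The histone demethylase *kdm3a* was at 0.41 ± 0.23 and the adenylate kinase *ak4* at 0.46 ± 0.28 (SD, n = 4), without a call. The largest ratio by size in this list was that of *angptl4*, an inhibitor of lipoprotein lipase, named here after its values were seen. It was at -1.06, -3.29, 0.04 and -3.33, and with a mean of -1.91 ± 1.68 (SD, n = 4; adjusted p = 0.125, limma) it was not called.

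**Figure D3:**
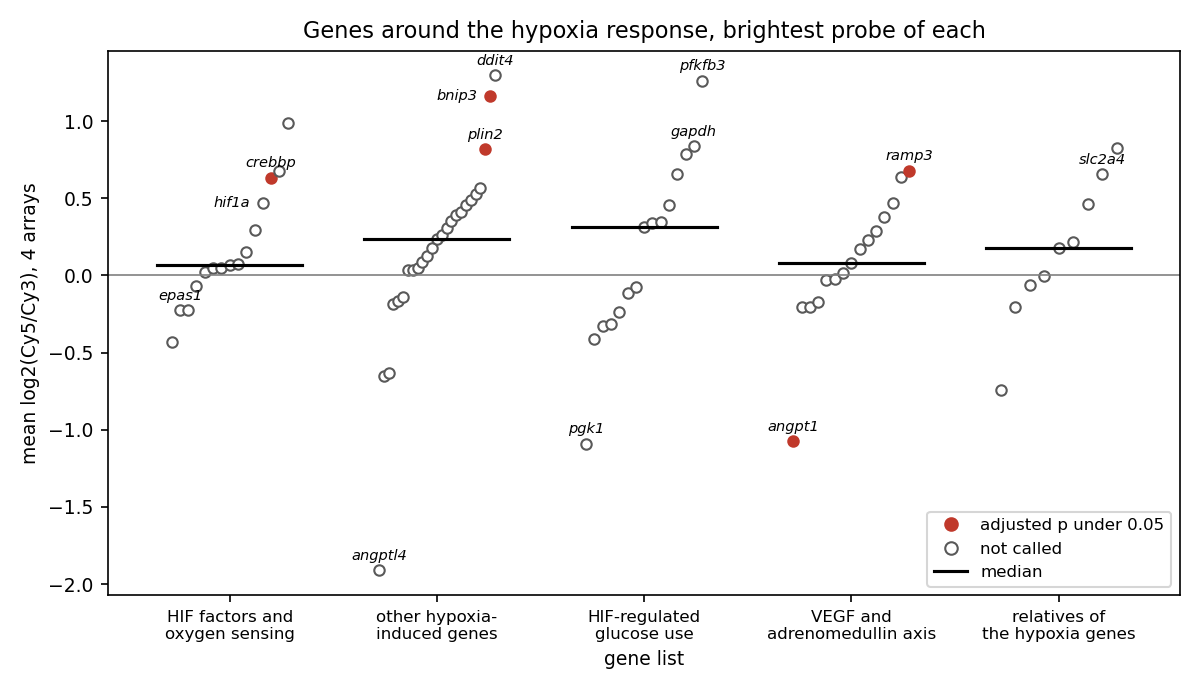
Mean log2(Cy5/Cy3) over 4 arrays (y axis) of the brightest probe of each measured gene in 5 gene lists (x axis), with filled points for an adjusted p under 0.05 and a line at the median of each list. The first list also holds *hif1a*, *epas1* and *egln3*, and points of every list lie on both sides of 0.

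None of the 15 measured genes of glucose use was called in limma by its brightest probe. An unadjusted p under 0.05 was reached by 5, 3 higher and 2 lower, and by 28.3% of all tested genes. *Pfkp*, named after its values were seen, had 1 of its 2 probes called, the dimmer one at 0.50. *Gapdh* was at 0.84 ± 0.43 (SD, n = 4; adjusted p = 0.0562, limma), and 2 of its 8 probes were called. *Hk1*, the hexokinase of basal glucose use, was at 0.65 ± 0.48 and *pgk1*, phosphoglycerate kinase, at -1.09 ± 0.70 (SD, n = 4). *Ldha*, lactate dehydrogenase A, was at -0.24 ± 0.65 and the enolase *eno1* at -0.33 ± 0.19 (SD, n = 4). The signs of *ldha* and *eno1* turned with the scaling, to 0.73 and 0.47 with median centring, and *pgk1* moved to -0.23. The list median was 0.31.

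Among 15 measured genes of the VEGF and adrenomedullin axis, 1 was called in each direction. *Ramp3*, the coreceptor that turns the calcitonin receptor-like receptor into an adrenomedullin receptor, was higher at 0.53, 0.63, 0.84 and 0.71, with a mean of 0.68 ± 0.13 (SD, n = 4; adjusted p = 0.0298, limma). It was dim, with Cy3 well above background on 2 of 4 arrays, and moved to 1.37 with plain subtraction and 2.10 with the scanner-processed signals. The receptor gene *calcrl* itself was at 0.02 ± 0.27 and *ramp2* at -0.02 ± 0.17 (SD, n = 4). *Angpt1*, the ligand that steadies vessels through the TEK receptor, was lower at -0.65, -1.64, -0.88 and -1.12, with a mean of -1.07 ± 0.43 (SD, n = 4; adjusted p = 0.0405, limma). Its 2 other probes were not called and reached up to -0.33, and with median centring *angpt1* was at -0.56.

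The vessel receptors *flt1* and *kdr* were at 0.23 ± 0.19 and -0.17 ± 0.21 (SD, n = 4), and *kdr* was at 0.07 with median centring. *Angpt2* was at 0.47 ± 0.42 and the VEGF coreceptor *nrp2* at -0.20 ± 0.04 (SD, n = 4), without a call. *Edn1*, the vasoconstrictor endothelin, was not well above background in Cy3 on any array and was not called (adjusted p = 0.0747, limma). With Cy3 held at or above the background floor, the means after loess were 1.3-fold higher in Cy5. That value counts no sampling error, and the log2 ratio was 0.21 on array 1 and 0.53 on array 4. With median centring the log2 ratio of *edn1* was 0.10 (adjusted p = 0.623, limma).

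No relative of the hypoxia genes was called among 9 measured. *Slc2a4*, which encodes the insulin-responsive transporter GLUT4 of muscle, was at 1.22, 0.58, 0.65 and 0.16 with a mean of 0.66 ± 0.44 (SD, n = 4; adjusted p = 0.0877, limma). *Slc2a8* was at 0.46 ± 0.25 and *ankrd9* at -0.21 ± 0.18 (SD, n = 4).

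The genes most like the HIF factors over the 4 arrays were taken by the smallest root mean square difference of the log2 ratios, over 9417 genes. For *hif1a* they were *myoz1* (difference 0.059), *tex30* (0.067) and *adamts1* (0.072). For *epas1* they were *stx8* (0.047), *stx18* (0.056) and *kdr* (0.057). On array 2 the second probe was at 0.77 for *hif1a* and 0.08 for *epas1*, where the brightest was at 0.23 and -0.52. The match used the brightest probe of each factor and depends on that choice. The match describes 4 arrays that share their dye orientation, each with its own bulls. None of these 6 genes was called.

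The calls rested on all 4 arrays. When any 1 array was left out, *adm*, *ndrg1* and *ankrd37* were not called, with adjusted p from limma of 0.0538 to 0.0851, 0.0507 to 0.0839 and 0.0928 to 0.155. Only *slc2a1* was called, and only without array 2 (1.38, adjusted p = 0.0481), while it gave 0.0957 to 0.136 without another array. All log2 ratios of these 4 genes stayed above 0 in these fits, in which 115, 38, 5 and 5 of all probes were called without arrays 1, 2, 3 and 4. Of the 5 called genes of the pathway lists, *bnip3* alone was called with an array left out, without array 1 (adjusted p = 0.0473, limma).

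**Figure D4:**
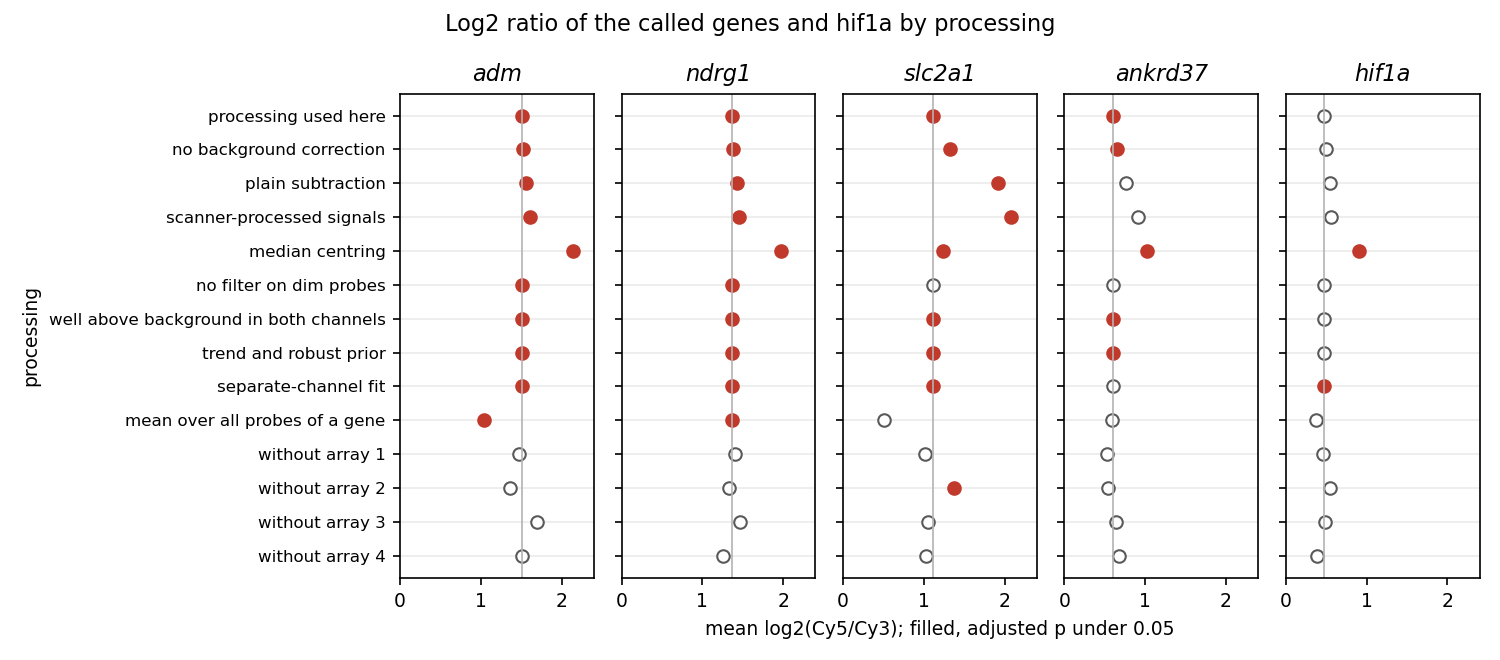
Mean log2(Cy5/Cy3) (x axis) of *adm*, *ndrg1*, *slc2a1*, *ankrd37* and *hif1a* under the processing used here and 13 alternatives (y axis), with filled points for an adjusted p under 0.05 and a grey line at the value used here. The ratio lies above 0 in every setting for the 5 genes, and *adm* and *ndrg1* were not called in the 4 fits that leave out an array.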

How the data were processed

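The deposited intensity values were scanner output, in which per the file headers Feature Extraction 10.7.3.1 had read median spot and background signals. The log10 values of the deposited series table were the scanner's log ratios, with 7.41% to 12.2% per array set to 0. The design asked for mean signals, which the files do not hold. Background was corrected by normexp (offset 50), each array went through loess (controls at weight 0), outlier spots were left out and spots of a probe averaged. Probes had to be well above background in 1 channel on all 4 arrays, with at least 3 values. The mean log2 ratio was tested against 0 with limma 3.58.1 (R 4.3.3, data.table version 1.17.8, statmod 1.5.0), two-sided, with Benjamini-Hochberg adjustment over 32606 probes. The procedure was run on simulated data with noise drawn independently for each probe. It called 34% of 1.5-fold, 67% of 2-fold and 88% of 4-fold changes, and 0.0185% of unchanged probes. Changes of the smaller sizes can thus be missed, so a gene that was not called is not shown to be unchanged. Accessions named 23492 probes through RefSeq. The members and lists were chosen with earlier results of these data known. Named were every probe of the members, every called list gene, up to 3 further genes per list with the smallest p, and fixed axis genes. The number of arrays limits the precision. Alternatives covered background, scaling, filter, test, probe choice and each array left out. The array build differs from that of the reference, so no positions are given.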

Additional observations from a re-analysis of the deposited data

Results flagged for a closer look

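With 4 arrays, a value was singled out when its gap to the nearest of the others divided by the whole range exceeded Dixon's 95% critical value, which chance does in about 5% of groups. This held for 3 of the 17 probes of the hypoxia genes and for 5 of the 76 other pathway genes. *Adm* probe A_73_P101696 was at 0.382 on array 3, below the other 3 arrays. *Slc2a1* probe A_73_104917 was at 0.33 on array 2, against at least 1.302 on the others, and without that array its mean was 1.38. *Vegfa* probe A_73_115644 was at -0.32 on array 2 and above 0 on the others. Of the other genes, *calcrl* was at 0.419, *p4ha2*, a collagen hydroxylase, at -1.355 and *ppp1r3c*, a glycogen-targeting subunit, at 2.355 on array 1. *Gapdh* was at 1.477 on array 2 and *cited2* at 1.958 on array 4.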

How the results depend on the processing

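The 4 calls among the hypoxia genes became 2 without the filter on dim probes and 2 with all probes of a gene averaged, 0 with the methods' t-test after Benjamini-Hochberg adjustment (5 at the study's criterion, all 4 called genes and *hif1a*) and 0 to 1 when 1 array was left out. They stayed between 3 and 5 under the other settings. The 5 calls among other pathway genes became 43 with median centring, 8 with an intensity trend and a robust prior, 16 in the separate-channel fit, 22 in limma and 11 in the t-test at the study's criterion, 0 in the t-test after adjustment and 0 to 1 with an array left out. The 1083 calls over all probes became 10725, 1666, 3210, 4707, 2887, 0 and 5 to 115 in the same order. Higher in Cy5 were 59.3% of these calls after loess and 93.4% with median centring. *Vegfa* turned to -0.036 with the scanner-processed signals and the series table and to -0.011 without array 1, and *egln3* to -0.079 without array 1 and -0.019 without array 3. With each array left out in turn, both ran up to 0.164. Calls lost with fewer arrays had fewer samples in the fit, and for the other changes the cause was not tested. Over 14 settings of the limma fit, which leave out the t-test, the adjusted p ran from 0.00185 to 0.0851 for *adm*, 0.0012 to 0.0839 for *ndrg1*, 0.00593 to 0.136 for *slc2a1*, 0.00621 to 0.197 for *ankrd37* and 0.0034 to 0.155 for *hif1a*. In the methods' t-test it was 0.184, 0.169, 0.231, 0.205 and 0.224 for the same genes. Signals near background limit the dim probes of *slc2a1*, *epas1* and *ramp3*. The test is itself paired by array, since each array holds a bull of each breed, and no further block could be set within 1 group of arrays. Probe GC content was not corrected for, as no probe sequences were at hand.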
